A study of Homo sapiens with 8 samples.

Results

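The 10 genes described here, HILPDA, DDIT4, EGLN1, EGLN3, BNIP3, BNIP3L, VEGFA, ADM, P4HA1 and NDRG1, are well-known targets of the hypoxia-inducible factors (HIFs) that act outside glycolysis. They are 10 of the 14526 genes in the table of RNA levels that the study deposited, and they were chosen by measured values, their RPKM levels and their changes between control and SB-treated cells. All values of these 10 genes are therefore given as a description, with no test. SB is sodium benzoate, a food preservative and a drug that cells can turn into benzoyl-CoA, and the study used it to raise benzoylation of histone lysines. RNA came from 4 control libraries of cultured cells grown in DMEM with 10% FBS and from 4 SB-treated libraries of cells that received 10 mM SB for 24 h before harvest. The labels give the cell line of all 8 libraries as HepG2, a line from a human liver carcinoma, and name no genetic change or other agent in either group. Levels are RPKM, in which reads are divided by the length of the gene and the size of the library, which allows genes of different length to be set side by side. The length counted was 7097 bases for EGLN1, beside 4335 in its canonical GENCODE transcript. Comparisons of level between genes depend on the length used.

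Of 19 hepatocyte markers, 17, among them ALB, APOA1, TTR and AFP, have no row in the table, and the other 2 (TF and CYP3A5) summed to between 0.563 and 0.790 RPKM in the control libraries and between 1.15 and 1.37 RPKM in the SB-treated libraries. All 8 genes of a list (IRS4, PAX2, LIN28B, INA, NEFL, NEFM, HOXA9 and HOXA10) known for expression in the human embryonic kidney line HEK293T, which the study also handled, have rows, and they summed to between 258 and 280.5 RPKM in the control and between 137 and 139.5 RPKM in the SB-treated libraries. The labelled cell type is thus not borne out by these 19 markers, and the identity of the cells was not tested. Reads recovered from the RPKM values came to between 36990091 and 44492817 per control library and between 37161801 and 44878446 per SB-treated library. Control replicate 1 stood apart from the other controls: the chi-square between the reads of 2 libraries, divided by its degrees of freedom, lay between 33.4 and 38.4 for pairs that included it and between 1.52 and 3.80 for every other pair within a group. Each result is therefore also given without that library where it matters. In bulk RNA, fewer cells that express a gene and less RNA per cell cannot be told apart.

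HIFs are dimers of an oxygen-regulated alpha subunit, encoded by HIF1A or EPAS1, and a stable partner encoded by ARNT or ARNT2. In oxygenated cells, prolyl hydroxylases of the EGLN family mark the alpha subunit, the VHL ubiquitin ligase recognises the mark, and the subunit is degraded. When oxygen is scarce the alpha subunit persists, and the dimer binds DNA elements with an ACGTG or GCGTG core near genes for glycolysis, blood vessel growth, mitophagy, matrix maturation and, as a feedback, EGLN genes themselves.

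Promoter windows were read from the RefSeq promoter table (GRCh38.p14, 250 bases before to 50 bases after the start of the gene), which has an entry for 6 of the 10 genes: DDIT4, BNIP3, EGLN1, EGLN3, P4HA1 and ADM. The genes HILPDA, VEGFA, BNIP3L and NDRG1 were without an entry. The windows of a pair of genes with a lower level in SB-treated cells, DDIT4 (chr10:72273674-72273973 on the plus strand) and BNIP3 (chr10:131981874-131982173 on the minus strand), and of the oxygen sensors EGLN1 (chr1:231422238-231422537 on the minus strand) and EGLN3 (chr14:33951025-33951324 on the minus strand) are shown, the latter because their levels differed unlike each other between the groups. Each is printed 5′ to 3′ on the strand of the gene, and capitals mark every ACGTG or GCGTG on either strand.
DDIT4: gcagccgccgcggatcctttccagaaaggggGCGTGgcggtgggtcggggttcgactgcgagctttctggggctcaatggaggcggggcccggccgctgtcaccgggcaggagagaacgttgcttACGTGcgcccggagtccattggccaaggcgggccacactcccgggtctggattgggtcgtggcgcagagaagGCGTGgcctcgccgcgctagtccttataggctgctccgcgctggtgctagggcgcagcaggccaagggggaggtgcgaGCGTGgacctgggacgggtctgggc
BNIP3: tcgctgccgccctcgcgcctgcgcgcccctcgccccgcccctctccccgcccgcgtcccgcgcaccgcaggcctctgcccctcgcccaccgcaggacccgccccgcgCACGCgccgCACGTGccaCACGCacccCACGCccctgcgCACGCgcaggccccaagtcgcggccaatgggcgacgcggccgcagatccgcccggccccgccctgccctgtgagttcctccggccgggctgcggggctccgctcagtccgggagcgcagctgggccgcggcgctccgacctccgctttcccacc
EGLN1: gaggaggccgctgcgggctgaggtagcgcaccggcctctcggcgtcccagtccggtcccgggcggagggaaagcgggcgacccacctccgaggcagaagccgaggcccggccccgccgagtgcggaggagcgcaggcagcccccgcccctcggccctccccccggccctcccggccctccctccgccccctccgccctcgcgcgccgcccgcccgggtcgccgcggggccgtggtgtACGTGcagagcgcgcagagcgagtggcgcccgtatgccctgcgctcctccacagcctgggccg
EGLN3: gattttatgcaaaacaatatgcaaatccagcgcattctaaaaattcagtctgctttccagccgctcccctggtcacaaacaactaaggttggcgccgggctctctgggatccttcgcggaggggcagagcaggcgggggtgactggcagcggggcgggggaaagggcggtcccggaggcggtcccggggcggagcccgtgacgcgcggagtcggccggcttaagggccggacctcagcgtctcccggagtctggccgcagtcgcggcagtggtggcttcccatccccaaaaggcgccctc
The window of DDIT4 holds 1 ACGTG, at -125 to -121 from the start, and 3 GCGTG, of which the farthest begins at -219 and the last lies at 26 to 30 after the start. The window of BNIP3 holds a CACGTG, whose letters give ACGTG on each strand (from -134 and from -133), and 4 GCGTG on the opposite strand between -143 and -100. In EGLN1 an ACGTG lies at -13 to -9. In EGLN3, the sensor with the lower level in SB-treated cells, neither core is in the window. The RefSeq start of EGLN3 in this table is also the start of the canonical GENCODE transcript (33951074), while the GENCODE gene reaches upstream to 34462774, and promoters of the longer transcripts were not searched. P4HA1 has an ACGTG on the opposite strand at -86 to -82, and ADM a GCGTG at -101 to -97. Over all 35116 promoter windows of the table, 21.4% hold ACGTG, against 4 of these 6, and 36.5% hold GCGTG, against 3 of 6. The longer CACGTG, each match of which also holds ACGTG, is in 7.26% of all windows and in 1 of these 6. Either core is in 48.4% of all windows and in 5 of these 6. These matches describe letters in a window and do not show binding.

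Levels of the 10 genes were lower on average in SB-treated cells, by amounts that ran from a factor of 3.23 for HILPDA to 2.77% for VEGFA. In 7 of the 10 every SB-treated library lay below every control library, in the other 3 (VEGFA, EGLN1 and NDRG1) the groups overlapped, and 0 lay above in every library. Over all 14526 genes 30.5% were lower in every SB-treated library than in every control. The choice of the members used this contrast, so nothing is read from that difference in share. The difference in mean log2(RPKM + 1), SB-treated minus control, was -0.5 or lower for 3 members, between -0.2 and -0.5 for 3 and smaller than 0.2 for 4, with a median of -0.27, beside 0.0045 over all genes. Without control replicate 1 the median was -0.22, 8 members were lower without overlap, and 9 had a lower mean, the exception being EGLN1. The study scaled its libraries with TMM factors, between 0.957 and 0.969 in the controls and between 1.03 and 1.04 in SB-treated cells. Without these factors the median of all genes moved to 0.08 and that of the members to -0.18, 7 members kept a lower mean log2 level, the signs of VEGFA (0.06), EGLN1 (0.06) and NDRG1 (0.01) turned, and HILPDA, DDIT4, BNIP3L, EGLN3 and ADM, 5 of 10, stayed below every control. The share of 30.5% over all genes holds for all libraries with TMM factors. No such share was counted in the other settings, and nothing is read from the 8 and 5 members there.

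**Figure D1:**
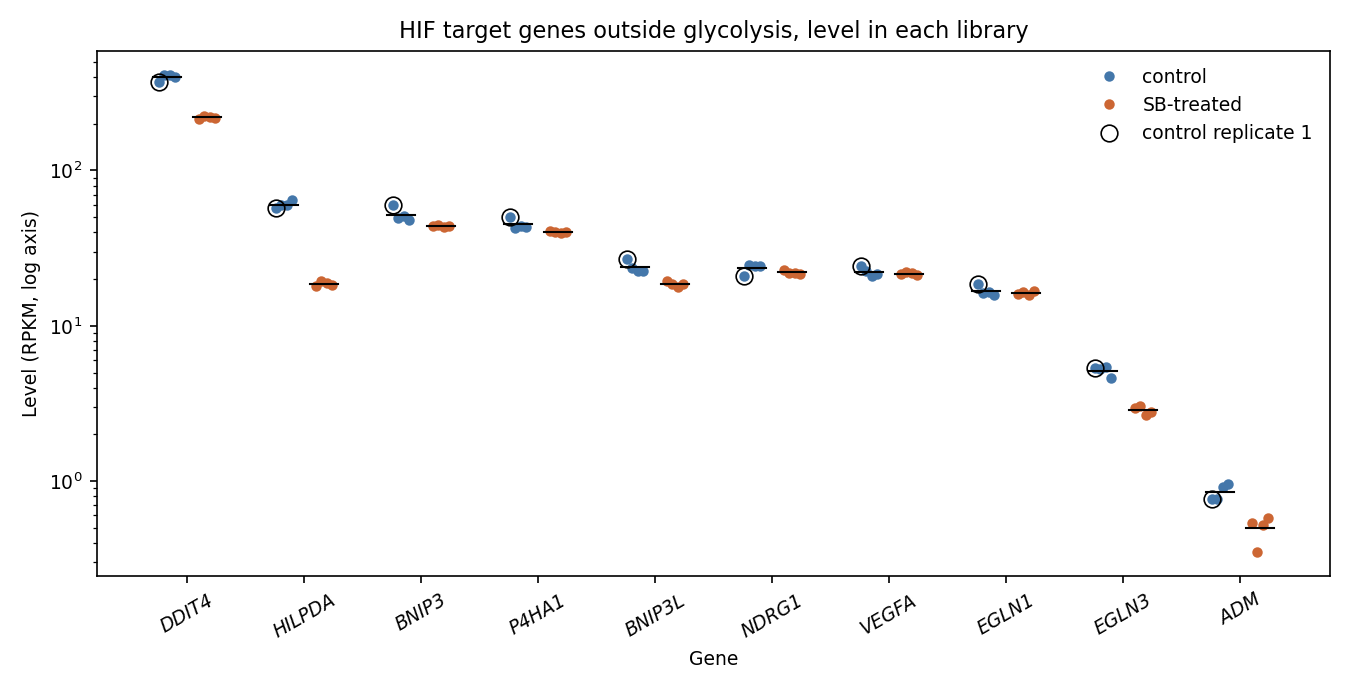
Level of each gene in RPKM on a log axis in the 4 control libraries (blue) and the 4 SB-treated libraries (orange), with the group mean as a black bar and control replicate 1 circled. HILPDA lay between 57.1 and 64.3 RPKM in control and between 18.1 and 19.6 RPKM in SB-treated libraries, while the points of VEGFA, EGLN1 and NDRG1 overlap between the groups.

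HILPDA, which encodes a small lipid droplet protein that inhibits the triglyceride lipase ATGL, had the largest difference of the 10. Its level was 57.1, 60.01, 60.04 and 64.3 RPKM in control replicates 1 to 4 and 18.1, 19.6, 19.0 and 18.2 RPKM in SB-treated replicates 1 to 4. The groups were far apart, with a range within each that was narrow beside the gap between them. The mean was 60.4 ± 2.98 RPKM (SD, n = 4) in control and 18.7 ± 0.691 RPKM (SD, n = 4) in SB-treated cells, 69.0% lower. On the log2(RPKM + 1) scale the difference was -1.64 (SE 0.04) with all libraries and -1.66 without control replicate 1. By this difference HILPDA stood in place 4 from the lowest among the 14526 genes. It rested on 982 to 3712 reads per library. The gene lies at chr7:128455849-128458418 on the plus strand (hg38, GENCODE release 44) and has 2 exons, and the lncRNAs HILPDA-AS1 and ENSG00000273184 are annotated over it on the same strand. Reads may be shared with these lncRNAs, and counting by strand would not tell them apart where they overlap. For genes that overlap on opposite strands, the sources used here do not say whether strand was used in counting.

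DDIT4, also known as REDD1, encodes a stress-induced protein that restrains the growth kinase mTORC1 through the TSC complex. It was the most abundant of the 10 genes, at the 99.3 percentile of control levels over all genes. Control replicates 1 to 4 gave 374, 414, 414 and 400.2 RPKM, and SB-treated replicates 1 to 4 gave 214, 224, 222 and 219 RPKM. No SB-treated library came near a control library, and control replicate 1 was the lowest control. The mean was 400.6 ± 19.1 RPKM in control and 219.9 ± 4.28 RPKM in SB-treated cells (SD, n = 4 each), which is 45.1% lower. The log2(RPKM + 1) difference was -0.86 (SE 0.04), or -0.89 without control replicate 1, at place 82 from the lowest. The gene (chr10:72273919-72276036, plus strand, 3 exons) has no other gene annotated over it. HILPDA stood at 15.1 ± 0.756% of DDIT4 in control and at 8.502 ± 0.173% in SB-treated cells (SD, n = 4 each).

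EGLN1 (PHD2) and EGLN3 (PHD3), the prolyl hydroxylases that sense oxygen for the HIF pathway and are HIF targets themselves, differed from each other. EGLN3 was at 5.33, 5.24, 5.43 and 4.58 RPKM in the controls and at 2.96, 3.02, 2.67 and 2.79 RPKM in SB-treated cells. Every SB-treated library was below every control. Its mean was 5.15 ± 0.383 RPKM (SD, n = 4) against 2.86 ± 0.163 RPKM (SD, n = 4), 44.5% lower, from 307 to 618 reads per library. The log2(RPKM + 1) difference of -0.67 (SE 0.05) understates the change of a gene this low, and with a pseudocount of 0.1 it was -0.83. EGLN1, which does most of the hydroxylation in oxygenated cells, was at 18.7, 16.3, 16.4 and 15.8 RPKM in the controls and at 16.0, 16.4, 15.8 and 16.9 RPKM in SB-treated cells. The groups overlapped, and control replicate 1 alone lay above all SB-treated libraries. Its difference of -0.04 (SE 0.05) became 0.005 without that library. EGLN3 stood at 30.7 ± 2.24% of EGLN1 in control and at 17.6 ± 1.005% in SB-treated cells (SD, n = 4 each), with no overlap between libraries. EGLN2, the other member of the family, has no row. EGLN1 (chr1:231363751-231422287, minus strand, 5 exons) is overlapped on its strand by a protein-coding model, ENSG00000287856. EGLN3 (chr14:33924227-34462774, minus strand, 5 exons in its canonical transcript) is overlapped by SPTSSA on the same strand and EGLN3-AS1 on the other, and each of the genes has 1 pseudogene named after it. The length counted for EGLN3 was 2722 bases, near the 2706 of its canonical transcript, so the longer gene model that reaches SPTSSA may not have been counted.

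BNIP3 and BNIP3L (NIX), outer mitochondrial membrane receptors for mitophagy, were lower by smaller amounts. BNIP3 was at 59.7, 49.5, 51.1 and 47.9 RPKM in the controls and at 43.7, 44.7, 43.4 and 43.8 RPKM in SB-treated cells. The groups did not overlap, but the lowest control lay close to the highest SB-treated library and control replicate 1 lay well above the other controls. The difference in log2(RPKM + 1) was -0.24 (SE 0.06) with all libraries and -0.17 without control replicate 1, and without TMM factors it was -0.13 and the groups overlapped. BNIP3L was at 27.1, 23.4, 22.5 and 22.5 RPKM against 19.5, 18.6, 17.8 and 18.7 RPKM, again highest in control replicate 1. Here the libraries stayed apart without that replicate and without TMM factors, and the difference was -0.34 (SE 0.06), or -0.28 without control replicate 1. As a share of control, the means were 15.6% lower for BNIP3 and 21.8% lower for BNIP3L. The ratio of BNIP3L to BNIP3, 45.9 ± 1.55% in control and 42.5 ± 1.56% in SB-treated cells (SD, n = 4 each), overlapped between the groups. BNIP3 (chr10:131967684-131981967, minus strand, 6 exons) has 44 pseudogenes named after it in GENCODE release 44, so that its 50-base reads may be shared with copies, and its level is uncertain to that extent. BNIP3L (chr8:26383054-26505636, plus strand, 6 exons) overlaps PNMA2 on the opposite strand.

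VEGFA, the main growth factor for blood vessels, did not differ beyond the spread of the libraries. It was at 24.1, 22.5, 21.0 and 21.6 RPKM in the controls and at 21.7, 22.1, 21.8 and 21.2 RPKM in SB-treated cells. The SB-treated libraries fell within the range of the controls, and the difference of -0.04 (SE 0.04) became -0.00073 without control replicate 1. Counts for VEGFA (chr6:43770184-43786487, plus strand, 8 exons) came to 2834 to 3876 reads per library. ADM, the precursor of the vasodilator peptide adrenomedullin, was the lowest of the 10, at 0.768, 0.767, 0.915 and 0.954 RPKM in control and 0.540, 0.348, 0.520 and 0.581 RPKM in SB-treated cells. Every SB-treated library was below every control, at a depth of only 22 to 62 reads per library. The log2(RPKM + 1) difference of -0.31 (SE 0.06) is compressed at this level, and on the recovered reads voom gave -0.78. The gene lies at chr11:10305073-10307397 on the plus strand in 4 exons.

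P4HA1, a catalytic subunit of the collagen prolyl 4-hydroxylase, was at 49.9, 42.4, 44.2 and 43.2 RPKM in control and 40.6, 40.4, 39.5 and 40.01 RPKM in SB-treated cells. The libraries did not overlap, and the difference of -0.16 (SE 0.05), a mean 10.6% lower, shrank to -0.11 without control replicate 1 and to -0.05 without TMM factors, where the groups overlapped. The gene lies at chr10:73007217-73096974 on the minus strand in 15 exons. NDRG1, a stress- and hypoxia-responsive gene of the NDRG family, was at 21.0, 24.5, 24.3 and 24.4 RPKM in control and 22.7, 22.03, 21.9 and 21.5 RPKM in SB-treated cells. Its control replicate 1 lay below all SB-treated libraries while the other controls lay above them all. The difference was thus -0.09 (SE 0.05) with all libraries and -0.14, with no overlap, without control replicate 1. NDRG1 lies at chr8:133237175-133302022 on the minus strand in 16 exons.

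**Figure D2:**
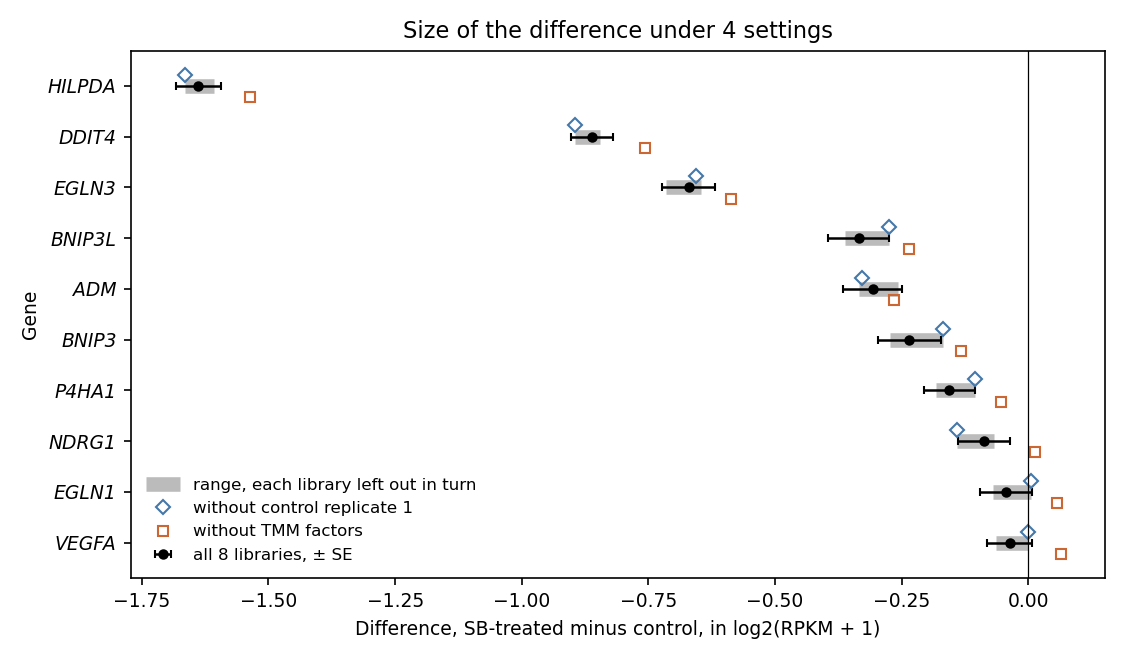
Difference between SB-treated and control libraries in log2(RPKM + 1) for each gene (black, ± SE), without control replicate 1 (blue diamonds), without TMM factors (orange squares) and the range when each library in turn is left out (grey bars). Leaving out the TMM factors moved points to the right, past 0 for NDRG1, EGLN1 and VEGFA, while HILPDA at -1.64, DDIT4 at -0.86 and EGLN3 at -0.67 remained well below 0 in each setting.

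The order of levels between genes differed between the groups. In control cells DDIT4 was highest, followed by HILPDA, BNIP3 and P4HA1, of which each neighbour overlapped the next. BNIP3L, NDRG1 and VEGFA came after them, also overlapping with their neighbours, and then EGLN1, EGLN3 and ADM, each apart from the next. In SB-treated cells DDIT4, BNIP3 and P4HA1 led, each apart from its neighbour, NDRG1 and VEGFA overlapped, and HILPDA had moved from place 2 to place 6, where it overlapped BNIP3L. EGLN1, EGLN3 and ADM kept the last places.

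Control replicate 1 bore on the 10 genes in opposite directions. Relative to the mean of the other 3 controls it was at 120.5% for BNIP3, 119% for BNIP3L, 115% for P4HA1 and EGLN1, 111% for VEGFA and 105% for EGLN3, but at 85.9% for NDRG1, 87.5% for ADM, 91.3% for DDIT4 and 92.9% for HILPDA. The GC content of the canonical transcript was 37.4% for BNIP3L and 39.7% for P4HA1 at the low end, and 58.0% for DDIT4 and 55.4% for ADM at the high end. Over the 10 genes, which share that library, the log2 ratio of control replicate 1 to the other controls had a Pearson correlation of -0.87 with GC content, given as a description. The part of base composition in the values of that library was not tested.

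**Figure D3:**
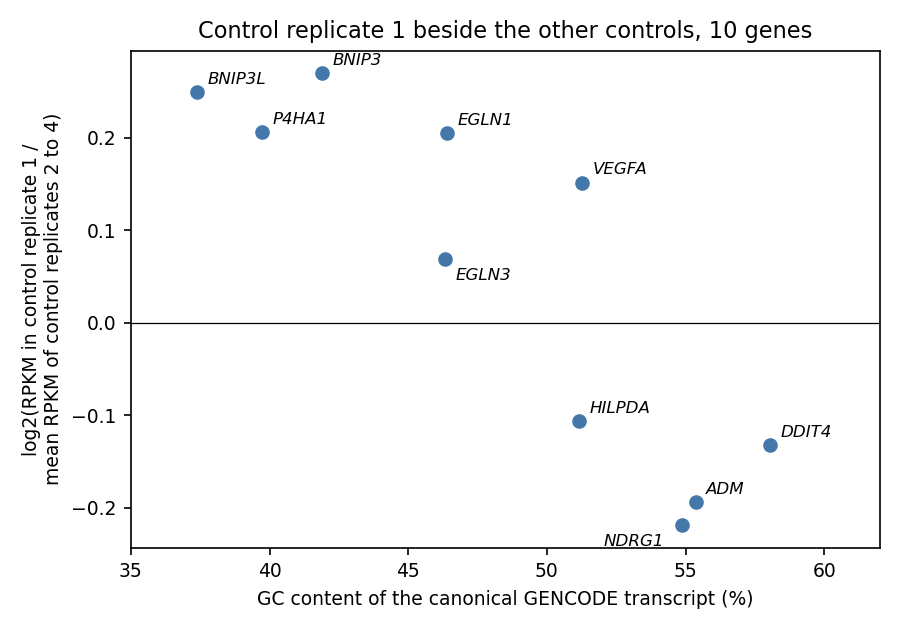
Log2 ratio of the level in control replicate 1 to the mean of control replicates 2 to 4, against the GC content (%) of each gene's canonical transcript, 1 point per gene. Genes of low GC content such as BNIP3L lie above 0 and genes of high GC content such as NDRG1 and ADM lie below 0 (r = -0.87 over 10 genes).

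By Euclidean distance over the 8 libraries on log2(RPKM + 1), taken from each gene's control mean, the genes most like HILPDA were SNCG (0.29), HAS2 (0.30), NOG (0.41), IRS4 (0.47) and SEPW1 (0.48). SNCG went from 13.2 ± 0.822 to 3.21 ± 0.232 RPKM and HAS2, a hyaluronan synthase, from 16.6 ± 0.786 to 4.56 ± 0.316 RPKM (SD, n = 4 each). IRS4 is also the most abundant gene of the HEK293T list, at 130.6 ± 7.19 RPKM in control and 48.3 ± 0.920 RPKM in SB-treated cells.

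Other genes of the pathway were tested with limma on log2(RPKM + 1), with p-values adjusted by Benjamini and Hochberg's method for the whole table and a threshold of 0.05. Over all genes 33.0% passed as higher and 32.6% as lower in SB-treated cells, and 5.12% were higher and 5.45% lower by 0.5 or more on the log2 scale. Counts in each list were read against these shares. The lists were chosen with earlier results of these data known, so a share that differs from the background is a description. Without TMM factors nearly the whole table shifted toward higher levels in SB-treated cells, with 43.0% of all genes higher and 23.1% lower, and counts without TMM factors were read against those shares. For machinery of the pathway, 16 of 18 listed genes have a row, 4 rose and 9 fell, with a median log2 fold change of -0.18. Those that fell are 56.2% of the list. Without TMM factors 5 rose and 5 fell (31.2% each), beside 43.0% and 23.1% of all genes. The count that fell thus depends on the scaling, and with 16 genes no direction is read from it. CITED2, a HIF-induced inhibitor that competes with HIF-1 alpha for the coactivators p300 and CBP, fell from 33.7 ± 0.582 to 15.1 ± 0.536 RPKM (SD, n = 4; log2 fold change -1.11, SE 0.04, limma adjusted p = 6.9e-08). The coactivator genes themselves rose slightly, EP300 by 0.26 and CREBBP by 0.23 on the log2 scale, and so did HIF1AN, the asparaginyl hydroxylase that blocks coactivator binding, by 0.23. ARNT2 rose from 7.39 ± 0.449 to 13.8 ± 0.149 RPKM (SD, n = 4; 0.82, SE 0.04, limma adjusted p = 6.5e-07). The alpha subunit genes were lower: HIF1A by a log2 fold change of -0.20 (limma adjusted p = 0.0048) and EPAS1 by -0.33 (limma adjusted p = 0.00013), though for HIF1A the value without TMM factors was -0.10 (adjusted p = 0.082). ARNT had a log2 fold change of -0.09 (limma adjusted p = 0.033), which turned to 0.01 (adjusted p = 0.69) without TMM factors, and it did not pass without control replicate 2, without control replicate 4 or without any of the SB-treated replicates (limma adjusted p between 0.051 and 0.084). VHL did not pass, at 0.09 (limma adjusted p = 0.059), though it passed without control replicate 1 (0.12, adjusted p = 0.0079), without TMM factors (0.20, adjusted p = 0.0011) and with voom (0.09, adjusted p = 0.047). Of the ligase subunits that work with VHL, TCEB1 (elongin C, ELOC) was at -0.45 and CUL2 at -0.40, past the threshold and with no overlap between groups. TCEB2 (elongin B, ELOB) passed at -0.36 (limma adjusted p = 0.016), although its control replicate 1, at 80.6 RPKM beside 114 to 120.1 RPKM in the other controls, was below all SB-treated libraries, and without that library the value was -0.49, while without TMM factors TCEB2 did not pass (-0.26, adjusted p = 0.07). HIF3A has no row.

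Of 48 other HIF targets outside glycolysis, 38 have a row, 7 rose (18.4%), 14 fell (36.8%) and 17 did not pass, with a median of -0.06. The shares lie below the background for higher and near it for lower levels. Without TMM factors 13 rose (34.2%) and 11 fell (28.9%), below 43.0% and somewhat above 23.1%. CXCR4, a chemokine receptor, fell from 4.93 ± 0.225 to 1.83 ± 0.0972 RPKM (SD, n = 4; log2 fold change -1.07, SE 0.04, limma adjusted p = 1.2e-07). With voom CXCR4 was at -1.43. BHLHE40, a transcriptional repressor, was at -0.72 on log2(RPKM + 1) and -0.76 with voom. The secreted stanniocalcin gene STC1 was also at -0.72 on log2(RPKM + 1), but its level is low, 1.44 ± 0.0769 RPKM in control and 0.490 ± 0.0882 RPKM in SB-treated cells (SD, n = 4 each), and voom on the recovered reads gave -1.57. MXI1, a MYC antagonist, was at -0.62. These 3 genes passed as lower. The transferrin receptor gene TFRC rose by 0.67, from 31.2 ± 0.566 to 50.4 ± 1.31 RPKM (SD, n = 4), TMEM45A by 0.45, FUT11 by 0.33 and the glycogen branching enzyme gene GBE1 by 0.31. The HIF targets of glycolysis all have rows (21 of 21), of which 15 fell (71.4%), 3 rose (14.3%) and 3 (SLC2A1, PFKL and PFKFB4) did not pass, with a median of -0.40. The share that fell was above the background of 32.6%, and 8 fell by at least 0.5. As this list was chosen with earlier results of these data known, that difference in share is a description. Without TMM factors 12 fell (57.1%), against 23.1% of all genes, and 3 rose. Without control replicate 1 the median was -0.48 and 17 fell, while 5511 of all 14526 genes were lower. LDHA, which makes lactate, fell from 382 ± 20.3 to 207.8 ± 3.52 RPKM (SD, n = 4; -0.87, limma adjusted p = 4.4e-07), and PDK1, which inhibits pyruvate dehydrogenase, was at -0.84, the glucose transporter gene SLC2A3 at -0.76 and the aldolase gene ALDOC at -0.73. With voom PDK1 was at -0.97, LDHA at -0.88, SLC2A3 at -0.84 and ALDOC at -0.81. ENO2 (0.38) and PFKP (0.16) rose, as did SLC16A3 (0.21), which lay at 0.289 ± 0.0525 RPKM in control and 0.493 ± 0.110 RPKM in SB-treated cells (SD, n = 4 each) and was at 0.75 with voom, above ENO2 (0.41 with voom). Without control replicate 1 ENO2 was at 0.32 and ALDOC at -0.81.

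**Figure D4:**
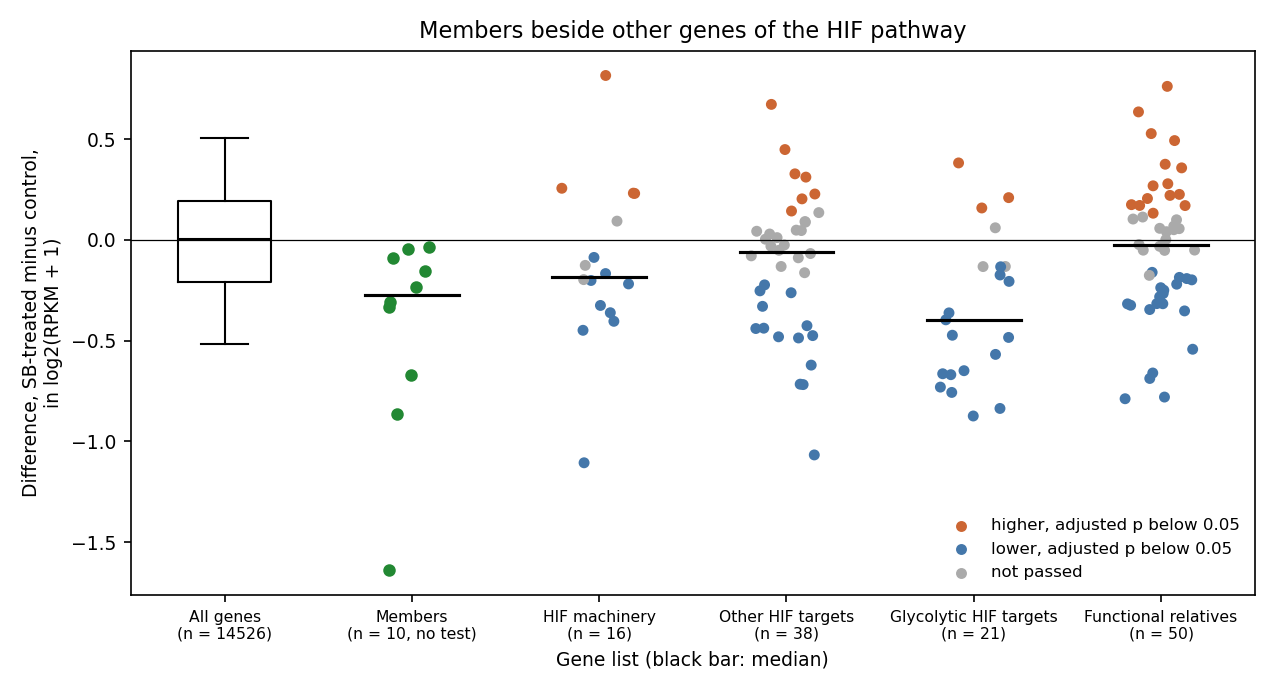
Difference between SB-treated and control libraries in log2(RPKM + 1) for all genes (box from quartile to quartile with the median, whiskers from percentile 5 to 95), the 10 genes described here (green, no test) and 4 other lists, with genes that passed as higher in orange, as lower in blue and the rest in grey. The median was -0.27 for the 10 genes, -0.18 for machinery, -0.06 for other targets, -0.40 for glycolytic targets and -0.03 for functional relatives.

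Genes that share a function with the 10 moved in each direction. Of 54 such relatives 50 have a row, 15 rose, 20 fell and 15 did not pass, with a median of -0.03. Against the background shares these counts do not stand out, nor do the 21 that rose and 13 that fell without TMM factors against the shares of all genes on that scaling. Counts in the smaller groups below, of 3 to 11 genes, stand beside 33.0% higher and 32.6% lower over all genes. Without TMM factors those shares are 43.0% and 23.1%. No direction is read from groups of this size. Among 10 lipid droplet genes related to HILPDA, 4 rose and 3 fell, or 5 and 2 without TMM factors, where PNPLA2 no longer passed. G0S2, like HILPDA an inhibitor of ATGL, fell from 6.97 ± 0.749 to 3.64 ± 0.374 RPKM (SD, n = 4; -0.78, SE 0.08, limma adjusted p = 1.9e-05), and, named after their values were seen, PNPLA2, which encodes ATGL, was at -0.22 and the droplet coat gene PLIN2 at -0.32, past the same threshold. With voom G0S2 was at -0.93. The coat genes PLIN3 and PLIN4 rose, by 0.49 and 0.53 on log2(RPKM + 1). PLIN4 went from only 0.158 ± 0.0245 to 0.669 ± 0.0138 RPKM (SD, n = 4 each), and voom gave it 2.09, against 0.52 for PLIN3. Without control replicate 1 PLIN3 was at 0.40. Higher as well were PLIN5 (0.28) and the ATGL activator ABHD5 (0.17), both named after their values were seen. Among 11 mTORC1 genes related to DDIT4, 4 rose and 5 fell, or 5 and 3 without TMM factors. TSC2, which encodes the GTPase-activating subunit of the complex through which DDIT4 acts, rose from 23.5 ± 3.40 to 36.8 ± 1.61 RPKM (SD, n = 4; 0.64, SE 0.09, limma adjusted p = 0.00023), and the mTOR inhibitor DEPTOR fell by 0.79. Without control replicate 1 TSC2 was at 0.53. With voom DEPTOR was at -0.97. The other 3 that rose, named after their values were seen, were TSC1, SESN2 and SESN3, and the other 4 that fell were RHEB, DDIT4L, SESN1 and AKT1S1, of which RHEB and SESN1 did not pass without TMM factors. Of 8 VEGF ligands and receptors, 5 fell, or 4 without TMM factors, among them NRP1, a VEGF co-receptor, by 0.69 and the placental growth factor gene PGF by 0.66 on the log2 scale. The other 3, named after their values were seen, were the receptors FLT1, KDR and NRP2, and FLT4 was the 1 gene of this group that rose, beside VEGFC without TMM factors. Of 8 further mitophagy genes, PHB2 (-0.54), FKBP8 (-0.32), FUNDC1 (-0.28) and BECN1 (-0.19) fell and SQSTM1 (0.23) rose, all named after their values were seen, and without TMM factors FKBP8 and BECN1 did not pass. Of 6 other genes of collagen hydroxylation and folding, SERPINH1 (0.21), named in the same way, rose and 5 did not pass, but without TMM factors 4 rose. Of the 3 relatives of NDRG1, also named after their values were seen, NDRG3 (-0.35) and NDRG2 (-0.19) fell and NDRG4 (0.17) rose, and NDRG2 did not pass without TMM factors. Of the 4 relatives of ADM, the peptide gene ADM5 rose by 0.76 from 0.585 ± 0.134 to 1.698 ± 0.360 RPKM (SD, n = 4; 1.55 with voom), and 2 others that rose, ADM2 and CALCRL, and RAMP1, which fell, were named after their values were seen.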

How the data were processed

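RNA from 8 libraries of cells labelled HepG2 was sequenced. The authors prepared stranded libraries, read 50 bases from single ends, mapped reads to hg38 with TopHat2 2.1.0, counted them per gene with featureCounts 1.5.0 and, with edgeR 3.16.5, kept genes above a CPM of 1 in at least 2 samples and applied TMM factors. The deposited values are RPKM per gene and library for 14526 genes, scaled by the authors to gene length and TMM-adjusted library size. The table's logFC, logCPM, PValue and FDR columns hold the authors' own comparison and were not used. Of the per-sample columns, 0 were left out.

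From these values, whole reads were recovered for 100% of genes (tolerance 0.02 reads), using the steps between values of 223 genes below 0.3 RPKM. For 22 genes the reads share a common factor and may be a multiple of the true ones. Groups were compared with limma 3.58.1 (R 4.3.3, lmFit and eBayes) on log2(RPKM + 1), which understates the change of low genes, with p-values adjusted by Benjamini and Hochberg's method for all genes and a threshold of 0.05. The labels call the replicates biological without saying what separates them, so p-values measure the spread between these libraries. The 10 members and the other lists were chosen with earlier results of these data known, and the members were not tested. Besides the members, the genes named are in each list up to 4 called higher and 4 called lower with the largest log2 fold change, HIF1A, EPAS1, ARNT, VHL, EGLN2 and HIF1AN, and the 5 genes nearest to HILPDA. Genes of the lists that have a row and lie outside this rule were named after their values were seen, though not each is marked so.

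Alternatives were a pseudocount of 0.1, no TMM factors, at least 1 RPKM in every library, voom in limma on the recovered reads, a block for the replicate number, and each library left out in turn. Added after seeing the data were voom with the block and, without TMM factors, the count of members that do not overlap and the calls within each role. Scripts were tested on simulated data. Of the hepatocyte marker list, 1 gene is not reported here. Gene positions, overlaps and GC content come from GENCODE release 44, promoter windows from RefSeq. The authors name Illumina iGenomes UCSC hg38 as their reference, so the gene models used in counting may differ from GENCODE release 44.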

Additional observations from a re-analysis of the deposited data

Results flagged for a closer look

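The 10 members and the 35 genes of the pathway lists that the rule names were searched, in the 4 libraries of each group, for a library far from the other 3. Its gap to the nearest of them was taken as a share of the range of the group, on a log2 scale. This share was above Dixon's critical value for 4 libraries in 5 of 90 groups, where chance would give about 4.5 if the groups were independent. The genes share their libraries, so they are not. For NDRG1 control replicate 1 was the lowest control (0.941), as it was for TCEB2 (0.877), and for MXI1 it was the highest (0.9496), so 3 of the 5 came from that library. For FUT11 SB-treated replicate 1 was the lowest (0.969), and for ALDOC SB-treated replicate 3 was the lowest (0.860). In NDRG1 and TCEB2 the distant library was what made the groups overlap. In MXI1, FUT11 and ALDOC the groups stayed apart with it.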

How the results depend on the processing

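Without TMM factors 6253 genes were higher and 3357 lower in place of 4787 and 4740, with 1214 higher and 416 lower by at least 0.5 in place of 744 and 792. The machinery genes called lower then numbered 5, the other HIF targets called higher 13 and the functional relatives called lower 13, and ARNT reversed to 0.0144 (adjusted p = 0.69). The count higher by at least 0.5 was 1609 with a pseudocount of 0.1, 1820 with voom and 1816 with voom and a replicate block. The cause was not tested. Leaving out each library gave 4311 to 5459 genes higher, 4285 to 5511 lower, 682 to 783 higher and 789 to 838 lower by at least 0.5. The ranges for higher and lower calls were 4 to 5 and 8 to 10 for machinery, 7 to 10 and 13 to 17 for other targets, 3 and 15 to 17 for glycolytic targets, and 13 to 15 and 17 to 22 for relatives.

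Deviations of same-numbered libraries correlated between -0.16 and 0.38, and those of other pairs between -0.39 and 0.29. Of 8 libraries, 4 correlated best with their own number. Whether replicate numbers pair the libraries cannot be told from these overlapping values. With the replicate block 4885 genes were higher and 4894 lower, HILPDA stayed at -1.64, ARNT lost its call (adjusted p = 0.058) and VHL gained one (adjusted p = 0.044).

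Of 139 alternative values of the 10 members, 124 moved by less than the spread between replicates. The other 15 were shifts of about 0.1 without TMM factors and larger differences for EGLN3 and ADM with a smaller or no pseudocount. ADM has no value when at least 1 RPKM is required in every library. For the 35 other genes of the pathway lists that the rule names, 469 of 486 alternative values kept direction and call. Genes named after their values were seen were tried only without TMM factors. At 22 to 62 reads per library, depth limits the precision for ADM.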
